A study of Mus musculus with 8 samples.

Results

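A set of 44 genes that stimulation is known to induce, taken outside the Egr, AP-1 and Nr4a families, was followed in RNA-seq counts from 8 mouse samples. The members were chosen by gene name, with earlier results of these data known. Comparisons of the members with all genes take no account of that choice. The members were found in a table of 54446 genes through GENCODE mouse annotation M21 on GRCm38. Of the 44, 42 had counts in at least 1 library, and all 42 passed the filter on low counts. Csrnp1 and Srf stood at 0 in every library and were dropped. The whole span of each is covered by other annotated genes, whose shared reads these counts leave out, so the zeros are no measure of their expression.

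The 4 WT samples came from wild-type mice. The 4 HOM samples came from their littermates with 2 copies of an Scn2a gene-trap allele (Scn2agt/gt), and Scn2a encodes the sodium channel NaV1.2. Heterozygous pairs were bred to give both groups, the strain is labelled C75BL6, and the series title calls the mice adult. The labels name no drug and no stimulus for either group. The labels call the source neuron and give no brain region. Summed levels of astrocyte markers (4717 to 5059 CPM in WT) and oligodendrocyte markers (3651 to 5483 CPM) stood beside those of neurons (6233 to 7164 CPM), so the libraries held RNA of glia as well. CPM here means counts scaled to library size with TMM factors. Nothing in the labels says that the numbered samples are separate mice, and p-values then measure only how these samples spread, which may be technical. Only HOM replicate 4 is set apart from its group as another source, by the Y-linked counts given below.

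Stimulus-induced genes are switched on within minutes to hours when calcium entry, growth factors or stress activate kinases that act on transcription factors already present in the cell. In neurons, calcium entering during firing leads through CaM kinases and the ERK pathway to CREB and to SRF, which bind the cyclic AMP response element (CRE) and the CArG box near the start sites of these genes. The products range from transcription factors to kinases, secreted factors and inhibitors that shut the response down. Many of the same genes also respond in glia, blood vessels and stressed cells.

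The CRE is shown here in promoters of members because it is the element that CREB binds. Promoter windows from RefSeq on GRCm38.p6, running from 250 bases before to 50 bases after a start site, were at hand for 37 of the 44 members. None was at hand for Sik1, Klf10, Trib1, Ier2, Crem, Cystm1 and Osgin2. Of the members that fell in HOM, 14 had a window. The full palindrome TGACGTCA was searched on both strands and occurred in a window of 6 of the 37, namely Arl4d, Pcsk1, Btg2, Plk2, Errfi1 and Maff. Over all 27025 genes with windows, 2.03% held it. The shorter CRE core TGACG, which the full palindrome contains, occurred in 20 of the 37 against 23.0% of all genes. Among the 37, a CArG box was found in Srf and Zfp36 alone, against 1.81% of all genes. An Egr site (GCGTGGGCG) was found in Maff alone, against 0.707%, and an AP-1 site (TGANTCA) in 3 members, against 8.97%. A gene counted if any of its windows held the letters. The 37 members had 57 windows and the 27025 genes 32851, and the shares were not adjusted for this. These matches are descriptions of the letters and no measure of binding. The 250 bases upstream of the start site follow, 5′ to 3′ on the strand of the gene and with the CRE in capitals, for a pair of genes that fell in HOM (Arl4d and Pcsk1) and a pair that did not pass the test (Plk2 and Btg2).
Arl4d (chr11:101665291-101665540, plus strand): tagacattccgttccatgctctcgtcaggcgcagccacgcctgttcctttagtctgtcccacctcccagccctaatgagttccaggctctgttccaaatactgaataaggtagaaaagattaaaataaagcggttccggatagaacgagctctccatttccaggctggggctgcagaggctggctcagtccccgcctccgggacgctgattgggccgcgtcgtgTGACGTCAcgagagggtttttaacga
Pcsk1 (chr13:75089607-75089856, plus strand): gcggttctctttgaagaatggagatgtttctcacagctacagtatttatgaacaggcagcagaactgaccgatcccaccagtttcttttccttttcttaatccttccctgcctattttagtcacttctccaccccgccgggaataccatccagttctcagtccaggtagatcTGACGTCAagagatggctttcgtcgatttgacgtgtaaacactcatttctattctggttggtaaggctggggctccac
Plk2 (chr13:110394794-110395043, plus strand): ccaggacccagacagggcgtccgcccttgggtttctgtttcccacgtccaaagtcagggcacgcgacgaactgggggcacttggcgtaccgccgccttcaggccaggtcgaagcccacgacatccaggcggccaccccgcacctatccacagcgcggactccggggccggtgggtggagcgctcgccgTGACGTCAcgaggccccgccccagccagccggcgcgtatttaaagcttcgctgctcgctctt
Btg2 (chr1:134079156-134079405, minus strand): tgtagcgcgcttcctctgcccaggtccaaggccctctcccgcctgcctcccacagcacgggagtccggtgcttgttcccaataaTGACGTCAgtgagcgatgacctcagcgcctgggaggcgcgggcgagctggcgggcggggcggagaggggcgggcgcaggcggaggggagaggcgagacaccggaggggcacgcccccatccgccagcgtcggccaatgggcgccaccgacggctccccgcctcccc
The first base of the CRE lies 26 bases before the start site in Arl4d, 62 in Plk2, 78 in Pcsk1 and 166 in Btg2. A full CRE thus occurred both in members that fell and in members that did not pass.

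Total counts were 27993412 to 37538988 per library. Scn2a itself stood at 371 to 477 CPM in the WT libraries and at 112 to 147 CPM in the HOM libraries, as the labels require. One library stood apart by 4 genes of the Y chromosome (Ddx3y, Eif2s3y, Kdm5d, Uty), whose summed counts were 2 in HOM replicate 4 and 4452 to 5984 elsewhere. HOM replicate 4 thus came from another animal source than the other HOM libraries. No WT library lacked these counts, so by them sex was not balanced between the genotypes, and the labels do not give it. The part of sex in the results was not tested, though fits without HOM replicate 4 are given below. Choroid plexus markers were uneven, with a sum of 151 to 1749 CPM in WT, highest in WT replicate 4, and 19.3 to 240 CPM in HOM. All 10 of these markers were detected and had a negative log2 fold change, at a median of -2.42. All 10 had an unadjusted p under 0.05 by edgeR, against 12.5% of all genes tested that were lower at that level. After adjustment Aqp1, Kl and Slc4a5 passed as lower. The part of the choroid plexus markers in the results was not tested beyond the covariate given below.

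Members fell in HOM or did not pass the test, and none rose. Of the 42, 18 were lower, 0 were higher and 24 did not pass (edgeR quasi-likelihood test, adjusted p under 0.05 over all 17395 genes tested). Among all genes tested 5.40% were called in either direction, 2.94% lower and 2.47% higher. At an unadjusted p under 0.05 the members lower were 24 and those higher 0, against 12.5% and 10.4% of all genes. DESeq2 called 22 members lower and 0 higher, against 6.15% and 4.77% of all genes. The median log2 fold change was -0.43 over the members and 0.00 over all genes tested. The sign was negative for 37 of the 42, and for 35 with library totals in place of TMM, where Klf6 and Maff crossed 0. CPM ranges of the genotypes did not overlap for 21 members, all with HOM lower, against 7.47% of all genes with HOM lower and 6.63% with HOM higher. None of the 18 reached a 2-fold change. Their log2 fold changes ran from -0.93 to -0.45, and 10 were beyond 1.5-fold.

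The 4 HOM libraries moved alike. The median distance of the members from their WT mean, in log2 CPM, was -0.34, -0.34, -0.49 and -0.35 in HOM replicates 1 to 4, and it lay between -0.04 and 0.09 in the WT libraries. Between 28 and 30 of the 42 members lay below the WT range in each HOM library, and 2 or 3 lay above it. Of all genes tested, 23.5 to 29.0% lay below the WT range in a HOM library and 22.7 to 29.2% above it. HOM replicate 3 held the lowest HOM value for 14 members and WT replicate 4 the lowest WT value for 17. The number of lower members was 8 without HOM replicate 3, 9 without WT replicate 3 and 11 without HOM replicate 1. It was 15 without HOM replicate 4 and 16 without WT replicate 4. Lower calls over the whole table were 511 of 17395 genes with all libraries. They numbered 89 of 17616 without HOM replicate 3, 114 of 17657 without WT replicate 3 and 124 of 17555 without HOM replicate 1. They numbered 258 of 17565 without HOM replicate 4 and 285 of 17585 without WT replicate 4. With the choroid plexus marker level as a covariate, which itself differs between the genotypes, Trib1 and Klf4 alone passed, while the median of the members stayed at -0.43. That setting called 26 of 17395 genes lower over the whole table.

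**Figure D1:**
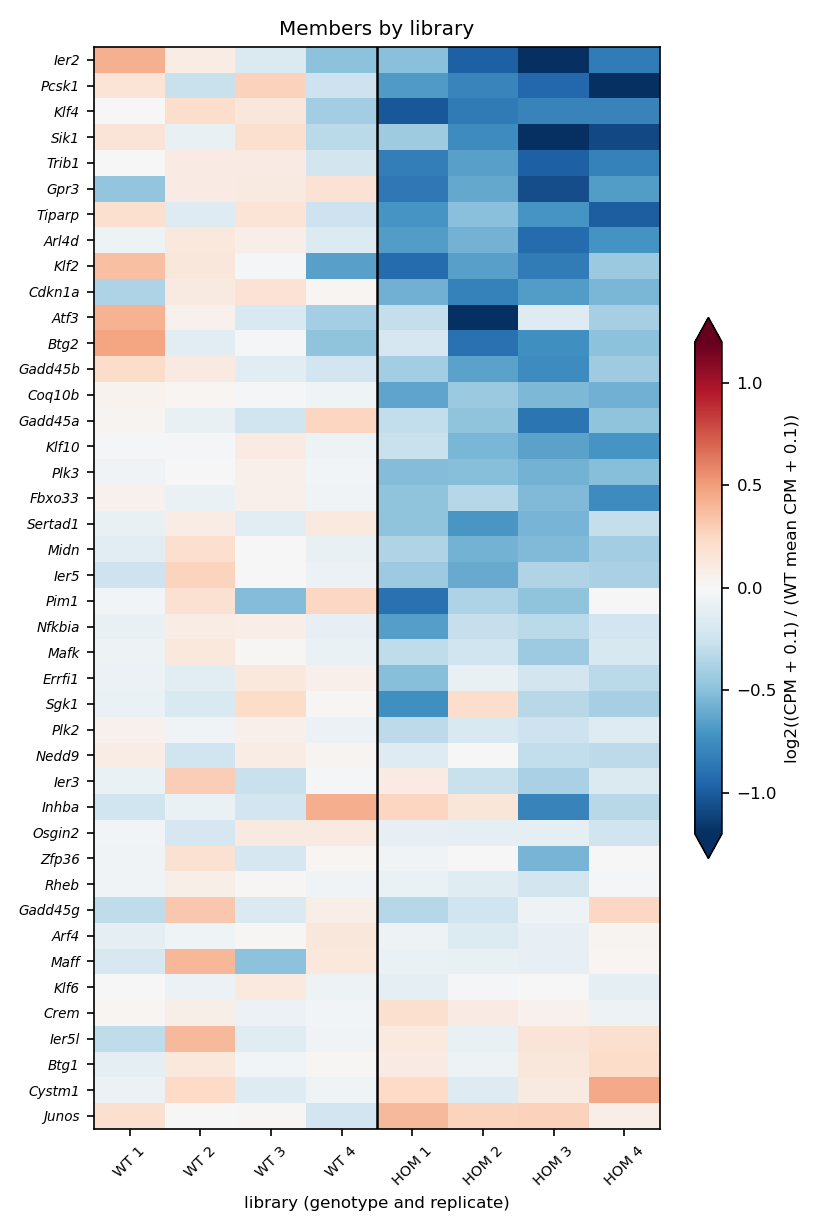
Level of each of the 42 measured members (rows, ordered by log2 fold change) in each library (columns), as the log2 ratio of CPM to the WT mean with 0.1 CPM added to both. Blue is lower and red is higher than the WT mean; the upper rows are blue in all 4 HOM libraries, whereas the bottom 5 rows, from Crem to Junos, mix both colours or lean to red.

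Kinases and a pseudokinase were among the clearest falls. Trib1 encodes a pseudokinase that brings target proteins to a ubiquitin ligase. It stood at 27.9, 29.7, 29.8 and 23.8 CPM in WT replicates 1 to 4 and at 15.6, 17.7, 14.1 and 15.8 CPM in HOM replicates 1 to 4. Every HOM library was below every WT library, with means of 27.8 ± 2.81 and 15.8 ± 1.48 CPM (SD, n = 4) and a log2 fold change of -0.82 (SE 0.10, adjusted p = 0.00119 by edgeR). Trib1 (ENSMUSG00000032501) lies at chr15:59648350-59657099 on the plus strand, and no other annotated gene overlaps it.

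Plk3 and Plk2 encode polo-like kinases, of which Plk2 is known for weakening overexcited synapses. Plk3 stood at 15.3, 15.8, 16.4 and 15.4 CPM in WT and at 10.9, 11.03, 10.6 and 10.99 CPM in HOM. The spread among HOM libraries was small, with an SD of 0.195 CPM, and the log2 fold change was -0.53 (SE 0.07, adjusted p = 0.00387 by edgeR). Plk2 stood at 201, 189, 202 and 185 CPM in WT and at 156, 171, 164 and 174 CPM in HOM. Its ranges did not overlap either, yet the log2 fold change of -0.22 (95% interval -0.36 to -0.09) did not pass (adjusted p = 0.0553 by edgeR). DESeq2 did call Plk2.

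Sik1, a salt-inducible kinase that restrains the CREB coactivators of the CRTC family, fell as well. Its levels were 23.0, 19.5, 23.7 and 16.5 CPM in WT and 15.4, 12.3, 8.87 and 9.72 CPM in HOM. HOM replicate 1 came close to WT replicate 4, and the log2 fold change was -0.84 (SE 0.17, adjusted p = 0.0184 by edgeR). The call was lost without WT replicate 3 or HOM replicate 3. The remaining kinase genes did not pass. Sgk1, the serum- and glucocorticoid-inducible kinase gene, stood at 99.5, 92.2, 122 and 106 CPM in WT and at 62.9, 121, 83.1 and 79.6 CPM in HOM. HOM replicate 2 lay inside the WT range while the other HOM libraries lay below it. Sgk1 had a log2 fold change of -0.27 (adjusted p = 0.330 by edgeR) and passed only without HOM replicate 2, at -0.47 (adjusted p = 0.0316 by edgeR). Pim1, at 1.54 to 2.70 CPM in WT and 1.16 to 2.26 CPM in HOM, shares 21.9% of its span with another gene and did not pass (log2 fold change -0.42, SE 0.24).

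**Figure D2:**
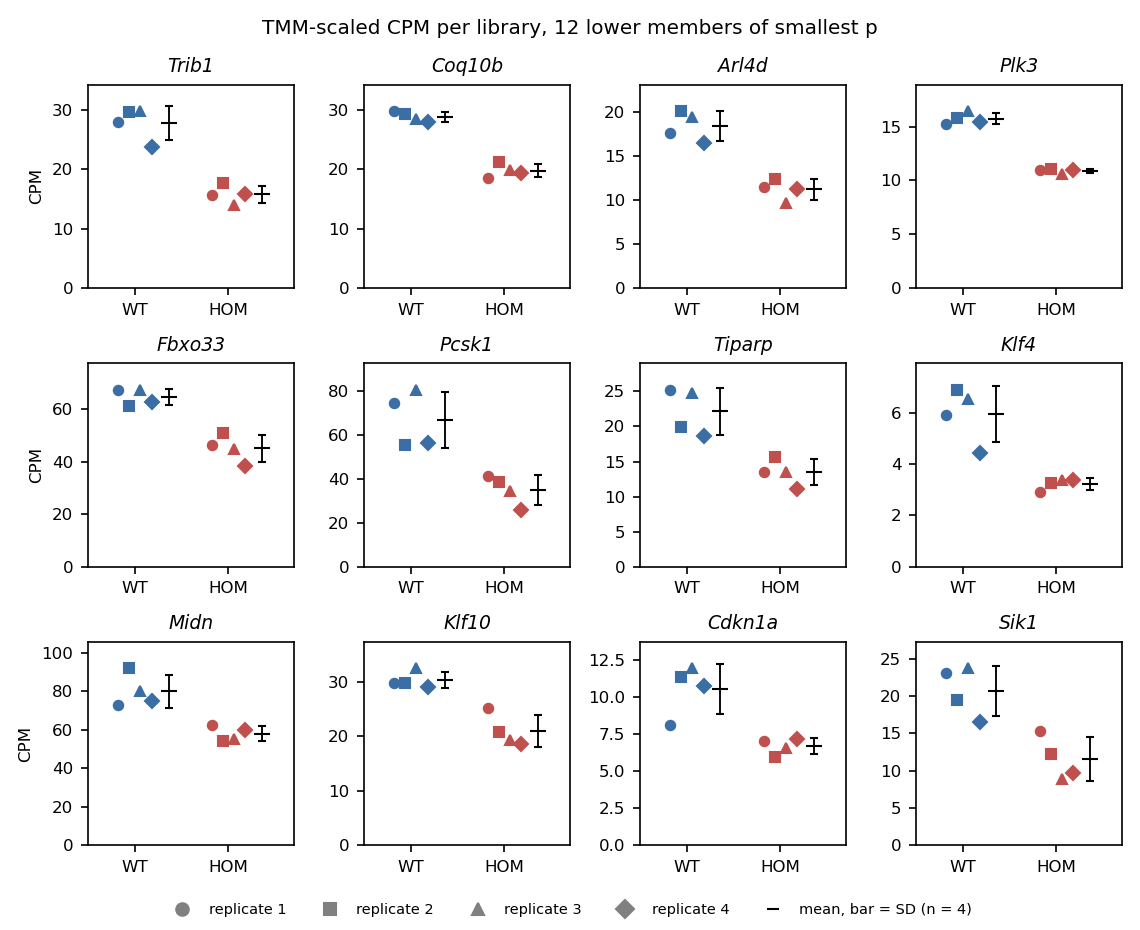
CPM in each library for the 12 lower members of smallest p, with WT in blue, HOM in red, a symbol per replicate, and the mean and SD (n = 4) in black; each y axis starts at 0. No HOM point reaches the lowest WT point in any of the 12 panels, and the gap, as a ratio, is narrowest in Sik1, Cdkn1a and Klf10.

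Transcription factors and nuclear regulators split into 6 that fell and 6 that did not pass, out of 12 measured. Klf4, a zinc-finger factor of the Krüppel-like family, stood at 5.95, 6.92, 6.56 and 4.44 CPM in WT and at 2.90, 3.27, 3.38 and 3.39 CPM in HOM (log2 fold change -0.88, SE 0.15, adjusted p = 0.0112 by edgeR). WT replicate 4 was the lowest WT library and still above every HOM library. Klf10, a relative induced early by TGF-beta, stood at 29.8, 29.8, 32.5 and 29.0 CPM in WT and at 25.1, 20.7, 19.3 and 18.6 CPM in HOM (log2 fold change -0.53, SE 0.10, adjusted p = 0.0141 by edgeR). The groups did not overlap, and the call was lost without WT replicate 3 or HOM replicate 3.

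Klf2, known as the flow-responsive factor of endothelium, was the weakest call of the 18. Its levels were 14.3, 12.3, 10.9 and 7.07 CPM in WT and 5.84, 7.06, 6.17 and 8.16 CPM in HOM, so HOM replicate 4 lay above WT replicate 4. The log2 fold change was -0.71 (SE 0.19, adjusted p = 0.0480 by edgeR). With single libraries left out Klf2 passed in 1 of 8 cases, without WT replicate 4 (adjusted p = 0.0126 by edgeR). The Klf2 call was also lost with upper-quartile scaling, with library totals only, with the filter of 1 CPM and with limma-voom. Klf6 differed little, at 49.9, 47.5, 53.8 and 47.6 CPM in WT and 46.1, 49.1, 49.6 and 46.1 CPM in HOM (log2 fold change -0.06, 95% interval -0.20 to 0.09). Endothelial markers moved with Klf2 and Klf4. Of the 7 markers, all detected, Flt1 (log2 fold change -0.47, adjusted p = 0.0345 by edgeR) and Cdh5 (-0.52, adjusted p = 0.0369 by edgeR) fell, and the sum of the 7 was 168 to 224 CPM in WT and 137 to 170 CPM in HOM. Their part in the Klf2 and Klf4 results was not tested. In bulk samples fewer cells of a type and less RNA per cell cannot be told apart.

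Immediate early response genes differed among themselves. Ier2, which encodes a small nuclear regulator of transcription, stood at 13.6, 10.7, 8.88 and 7.10 CPM in WT and at 7.05, 5.06, 3.38 and 5.59 CPM in HOM. HOM replicate 1 nearly reached WT replicate 4, and the log2 fold change was -0.93 (SE 0.22, adjusted p = 0.0359 by edgeR). With single libraries left out Ier2 passed in 1 of 8 cases, without WT replicate 4. Ier5, which encodes a nuclear regulator of heat shock factor HSF1, stood at 65.1, 93.0, 77.7 and 73.7 CPM in WT and at 57.1, 50.8, 60.1 and 59.0 CPM in HOM (log2 fold change -0.45, SE 0.10, adjusted p = 0.0283 by edgeR). Its groups did not overlap, and the call was lost without WT replicate 3 or any 1 HOM library. Ier5l, a gene of the same family, stood at 20.6, 33.2, 23.0 and 24.6 CPM in WT and at 27.5, 23.8, 28.3 and 28.9 CPM in HOM. Here the HOM libraries lay inside the WT range (log2 fold change 0.10, 95% interval -0.19 to 0.38). Sertad1, a cofactor of E2F and CDK4, stood at 9.09, 10.4, 8.81 and 10.5 CPM in WT and at 6.89, 5.94, 6.54 and 7.91 CPM in HOM. It fell by 0.50 on the log2 scale (SE 0.11, adjusted p = 0.0285 by edgeR), and it did not pass once any of WT replicates 2 to 4 or HOM replicates 1 and 3 was removed.

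The other nuclear members did not pass. Mafk, a small Maf protein gene, stood at 10.3, 11.8, 10.9 and 10.2 CPM in WT and at 8.69, 9.10, 7.97 and 9.43 CPM in HOM. These ranges did not overlap (log2 fold change -0.29, 95% interval -0.50 to -0.09, adjusted p = 0.0867 by edgeR). Its relative Maff was near 1.5 CPM, at 1.298, 2.01, 1.04 and 1.65 CPM in WT and 1.41, 1.41, 1.395 and 1.53 CPM in HOM. The stress factor gene Atf3 was low, with 15 to 34 counts per WT library and 5 to 19 per HOM library, and its interval ran from -1.36 to 0.20. Crem, a gene of the CREB family whose inducible isoform represses CRE-driven transcription, stood at 17.2 to 18.99 CPM in WT and 17.3 to 20.7 CPM in HOM (log2 fold change 0.08, 95% interval -0.10 to 0.25). One count per gene cannot separate the inducible isoform from the others.

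Growth arrest genes and regulators of mRNA decay held 2 that fell and 5 that did not pass. Cdkn1a encodes the cell cycle inhibitor p21. It stood at 8.14, 11.4, 12.0 and 10.8 CPM in WT and at 7.05, 5.97, 6.60 and 7.17 CPM in HOM, without overlap although WT replicate 1 was low (log2 fold change -0.65, SE 0.13, adjusted p = 0.0178 by edgeR). Cdkn1a did not pass once WT replicate 3 or either of HOM replicates 1 and 3 was removed. Gadd45b, which in neurons is known as an activity-induced gene tied to DNA demethylation, stood at 12.2, 11.3, 9.56 and 8.91 CPM in WT and at 7.86, 6.71, 6.2003 and 7.77 CPM in HOM. Every HOM library was below every WT library (log2 fold change -0.56, SE 0.13, adjusted p = 0.0288 by edgeR), and it did not pass once any of WT replicates 1 to 3 or HOM replicates 1 and 3 was removed.

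The relatives of Gadd45b did not pass. Gadd45a stood at 3.70, 3.40, 3.04 and 4.34 CPM in WT and at 2.93, 2.57, 1.92 and 2.57 CPM in HOM. Its groups did not overlap and its log2 fold change, -0.54 (adjusted p = 0.0892 by edgeR), was near that of Gadd45b, but 36.4% of its span is shared with another gene and its value is uncertain. Gadd45g stood at 9.79, 15.1, 10.7 and 12.7 CPM in WT and at 9.54, 10.2, 11.6 and 14.4 CPM in HOM, with full overlap (log2 fold change -0.08, 95% interval -0.42 to 0.25). Btg2, an antiproliferative gene whose product promotes removal of mRNA tails, stood at 27.9, 18.4, 19.9 and 14.4 CPM in WT and at 17.5, 10.8, 12.0 and 14.3 CPM in HOM. WT replicate 1 was high, the groups overlapped, and the log2 fold change of -0.56 did not pass (95% interval -0.97 to -0.14, adjusted p = 0.104 by edgeR), although DESeq2 called Btg2 and Gadd45a. Btg1 stood at 24.9, 29.4, 26.4 and 27.2 CPM in WT and at 29.0, 25.8, 29.6 and 31.4 CPM in HOM (log2 fold change 0.10). Zfp36, whose product destabilizes AU-rich mRNAs, shares 36.7% of its span with another gene and did not pass (log2 fold change -0.14, 95% interval -0.50 to 0.23).

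Genes of secretion and receptor signalling included the lowest HOM level relative to WT after Ier2. Pcsk1 encodes the prohormone convertase PC1/3, which cuts neuropeptide precursors. It stood at 74.7, 55.4, 80.7 and 56.2 CPM in WT and at 41.5, 38.4, 34.6 and 25.7 CPM in HOM. HOM samples held 52.5% of the WT level (log2 fold change -0.93, SE 0.15, adjusted p = 0.00957 by edgeR), and no library of 1 genotype reached the other. Pcsk1 (ENSMUSG00000021587) lies at chr13:75089826-75134861 on the plus strand, clear of other genes. Gpr3, a receptor that activates adenylyl cyclase without a known ligand, stood at 4.68, 6.99, 7.06 and 7.36 CPM in WT and at 3.54, 4.22, 3.07 and 4.07 CPM in HOM (log2 fold change -0.81, SE 0.17, adjusted p = 0.0210 by edgeR). WT replicate 1 was far below the other WT libraries and still above HOM. Gpr3 did not pass once any of WT replicates 3 and 4 or HOM replicates 1 and 3 was removed. Inhba, the gene of the activin A subunit, had 9 to 25 counts per library and shares 90.1% of its span with other genes, so it gave no usable comparison.

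Small GTPase genes gave 1 fall among 3. Arl4d, of the ADP-ribosylation factor family, stood at 17.6, 20.1, 19.5 and 16.4 CPM in WT and at 11.5, 12.4, 9.64 and 11.2 CPM in HOM. The groups lay well apart (log2 fold change -0.72, SE 0.10, adjusted p = 0.00375 by edgeR). Arl4d (ENSMUSG00000034936) lies at chr11:101665541-101667832 on the plus strand, and its CRE is the one nearest to a start site among the 4 promoters printed above. Rheb, the activator of mTORC1, stood at 92.0, 99.2, 95.7 and 91.7 CPM in WT and at 89.3, 85.8, 81.1 and 93.8 CPM in HOM (log2 fold change -0.11, 95% interval -0.25 to 0.02). Arf4, a GTPase gene of the secretory pathway, stood at 76.5 to 90.8 CPM in WT and 73.8 to 84.3 CPM in HOM (log2 fold change -0.07, 95% interval -0.22 to 0.08).

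Genes of protein turnover and metabolism held 4 falls among 7. Coq10b, which encodes a mitochondrial protein that binds coenzyme Q, stood at 29.9, 29.3, 28.4 and 28.0 CPM in WT and at 18.6, 21.2, 19.9 and 19.3 CPM in HOM. Its WT libraries agreed closely, with an SD of 0.850 CPM, and all HOM libraries were lower (log2 fold change -0.55, SE 0.07, adjusted p = 0.00248 by edgeR). Fbxo33, the gene of a substrate adaptor of SCF ubiquitin ligases, stood at 67.3, 61.4, 67.5 and 62.9 CPM in WT and at 46.4, 51.0, 44.95 and 38.3 CPM in HOM (log2 fold change -0.52, SE 0.08, adjusted p = 0.00893 by edgeR). Tiparp, which encodes the mono-ADP-ribosyltransferase PARP7, stood at 25.3, 19.9, 24.8 and 18.6 CPM in WT and at 13.6, 15.6, 13.5 and 11.1 CPM in HOM (log2 fold change -0.72, SE 0.12, adjusted p = 0.0111 by edgeR). In both genes every HOM library was below every WT library. Midn encodes midnolin, known for carrying immediate early proteins to the proteasome without ubiquitin. It stood at 72.8, 91.8, 80.3 and 74.9 CPM in WT and at 62.3, 53.9, 55.3 and 59.7 CPM in HOM (log2 fold change -0.47, SE 0.08, adjusted p = 0.0123 by edgeR), and the call was lost without HOM replicate 3. Nedd9, Osgin2 and Cystm1 did not pass, with log2 fold changes of -0.19, -0.14 and 0.18.

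None of the 3 genes of signalling inhibitors and survival factors passed. Nfkbia, the gene of the NF-kB inhibitor IkB-alpha, stood at 18.8, 21.4, 21.2 and 18.7 CPM in WT and at 12.6, 16.6, 16.0 and 17.1 CPM in HOM. The ranges did not overlap, and the log2 fold change of -0.36 missed the threshold (95% interval -0.59 to -0.14, adjusted p = 0.0590 by edgeR). Errfi1, which encodes an inhibitor of the EGF receptor, stood at 30.3, 29.2, 34.9 and 33.2 CPM in WT and at 22.4, 30.0, 27.4 and 25.4 CPM in HOM. HOM replicate 2 lay inside the WT range (log2 fold change -0.28, adjusted p = 0.109 by edgeR). DESeq2 called Nfkbia. Ier3 stood at 4.16 to 6.197 CPM in WT and 3.81 to 5.39 CPM in HOM (log2 fold change -0.17). All 3 values were negative and 1 of 3 had ranges that did not overlap. Over all genes tested, 8658 of 17395 were negative and 7.47% had ranges that did not overlap with HOM lower.

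Junos, the noncoding gene beside and partly over Jun on the other strand, was the member with the highest log2 fold change, 0.26 (95% interval -0.01 to 0.52, adjusted p = 0.231 by edgeR). It stood at 6.68, 5.80, 5.87 and 4.95 CPM in WT and at 7.64, 7.03, 7.07 and 6.16 CPM in HOM. HOM replicate 4 lay inside the WT range. The counts are taken to ignore strand and to leave out shared reads, so reads where Jun and Junos overlap would enter neither gene. Other genes, Jun among them, cover 7.69% of the Junos span. Jun itself stood at 50.3 ± 3.60 CPM in WT and 63.1 ± 8.78 CPM in HOM (SD, n = 4; adjusted p = 0.0690 by edgeR).

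**Figure D3:**
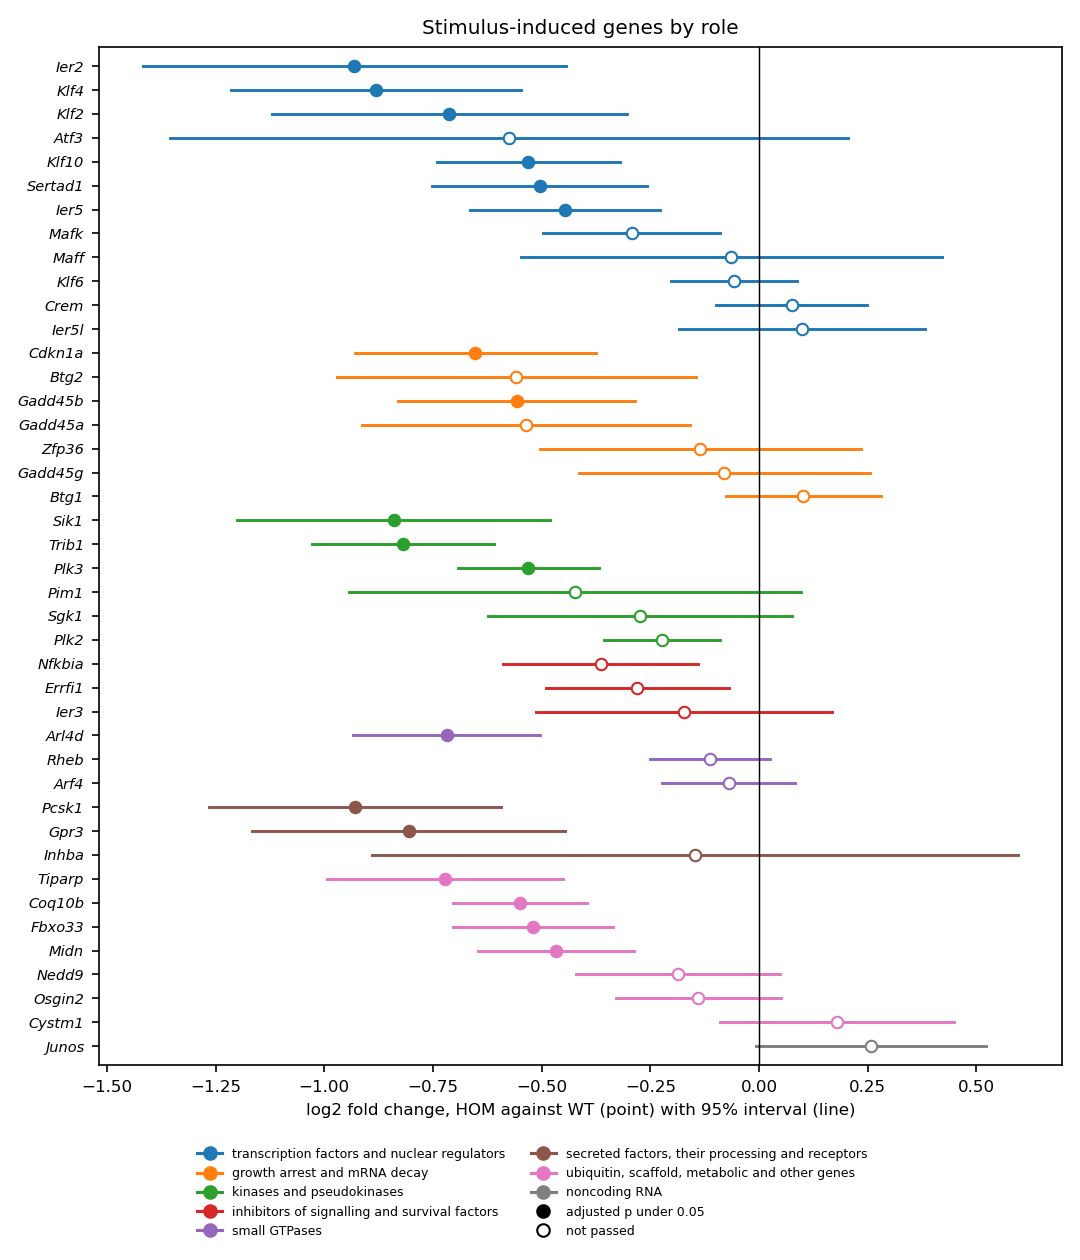
Log2 fold change, HOM against WT, of the 42 measured members with 95% intervals, grouped and coloured by role; filled points passed at an adjusted p under 0.05. All 18 filled points lie left of 0, and 5 open points (Junos, Cystm1, Btg1, Ier5l and Crem) lie right of it.

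Related genes were then set against each other within each library, which removes any difference in scaling. The log2 CPM of one gene minus that of the other was compared between genotypes for 9 pairs by an exact two-sided permutation test over 70 relabellings, whose smallest p is 0.0286. Values of 3 pairs did not overlap between genotypes. Ier5 minus Ier5l went from 1.62 ± 0.116 in WT to 1.07 ± 0.0308 in HOM. Klf10 minus Klf6 went from -0.71 ± 0.0316 to -1.195 ± 0.219, and Plk2 minus Plk3 from 3.62 ± 0.0645 to 3.92 ± 0.0653 (SD, n = 4 for each). All 3 had an exact p of 0.0286 and an adjusted p of 0.0857 over the 9 pairs, so no pair passed at 0.05. An adjusted p below 0.05 would have needed 6 of the 9 pairs at this smallest p. Btg2 minus Btg1 fell short as well (difference -0.64, exact p = 0.0571, adjusted p = 0.129). Gadd45b minus Gadd45a stood at 1.52 ± 0.332 and 1.5001 ± 0.139 (exact permutation p = 0.914). The pairs were chosen with earlier results of these data known, and none of these p-values takes account of that choice.

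**Figure D4:**
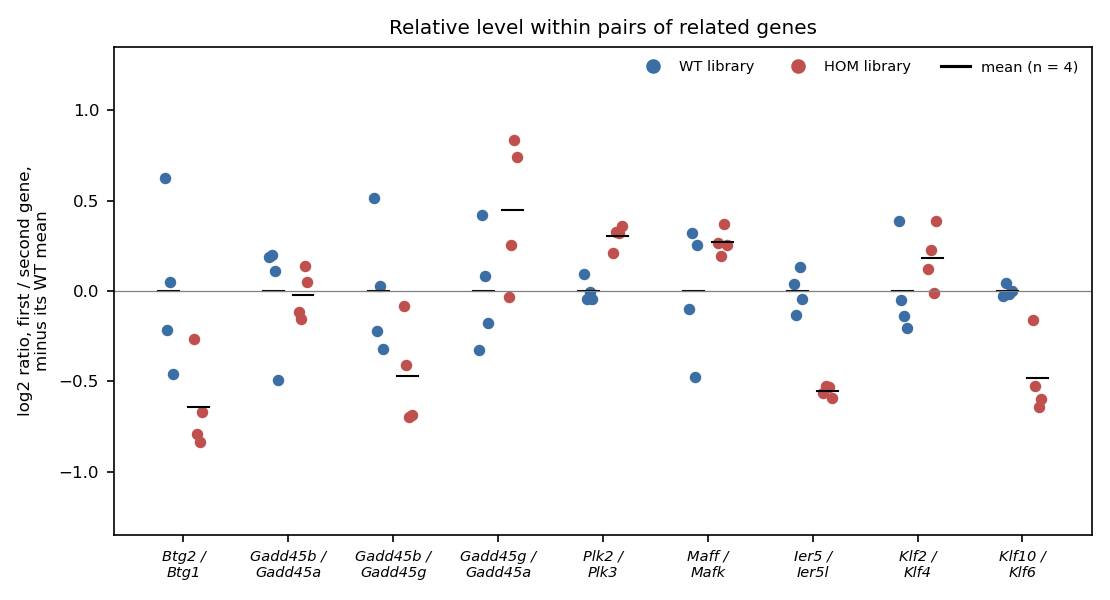
Log2 ratio of the first to the second gene of each pair in each library, minus the WT mean of that pair, with WT in blue, HOM in red and black bars at the mean (n = 4). The genotypes separate fully for Plk2 / Plk3, Ier5 / Ier5l and Klf10 / Klf6 and overlap in the other 6 pairs.

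Members that fell did not stand out by level: the median WT level was 19.5 CPM for the 18 lower members and 18.8 CPM for the 24 that did not pass. The median span of the 42 members was 9079 bases, against 26507 bases for the 14661 protein-coding genes tested, and it was 7037 bases for the lower members. Single members ran from 1240 to 177782 bases, and 10 were longer than that protein-coding median. No other annotated gene overlaps 13 of the 18 lower members.

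The 3 other families of activity-induced transcription factors are given beside the members. Of all genes tested 2.94% were called lower. Of 6 Egr and Nab genes 4 fell (Egr1, Egr2, Egr3 and Egr4), at a median log2 fold change of -1.09 over the 6. Of 7 AP-1 genes 4 fell (Fos, Fosb, Fosl2 and Junb), at a median of -1.07. All 3 Nr4a genes (Nr4a1, Nr4a2 and Nr4a3) fell, at a median of -0.999. The difference between these medians and the -0.43 of the members was not tested. All rest on the same 8 libraries. With single libraries left out, the Nr4a count was lowest, at 1, once WT replicate 3 or either of HOM replicates 3 and 4 was removed.

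Genes that carry the signal from the membrane to the nucleus were read from the same fit. Of 25 measured, 2 fell and 1 rose, at a median log2 fold change of -0.10. These are 8% lower and 4% higher, against 2.94% and 2.47% of all genes tested. Ppp3r1, the regulatory subunit gene of the calcium-activated phosphatase calcineurin, fell from 92.6 ± 4.90 to 68.7 ± 5.67 CPM, and Camkk2, a CaM kinase kinase gene, from 369 ± 19.4 to 289 ± 8.34 CPM (SD, n = 4 for each). Ppp3r1 shares 44.4% of its span with Wdr92, so its value is uncertain. Crtc3, the gene of a CREB coactivator of the family that Sik1 restrains, rose from 35.4 ± 2.18 to 44.7 ± 2.20 CPM (log2 fold change 0.33, SE 0.07, adjusted p = 0.0228 by edgeR). The count of higher genes was 0 when any of WT replicates 1, 3 and 4 or HOM replicates 1 and 3 was removed, and 2 without HOM replicate 2 or HOM replicate 4.

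Lists of other pathways that induce some of the same members are given for context, and their part in the results was not tested. Of all genes tested 2.94% were lower and 2.47% higher. The shares were 12.5% and 10.4% at an unadjusted p under 0.05, and 6.15% and 4.77% with DESeq2. None of 14 genes on the glucocorticoid list passed (median -0.18, with 3 lower and 0 higher at an unadjusted p under 0.05, and 2 lower with DESeq2). That list holds the receptor genes Nr3c1 and Nr3c2 beside responsive genes. None of 13 NF-kB pathway genes passed (median -0.17; 2 lower and 1 higher at an unadjusted p under 0.05, 1 lower with DESeq2). Of 12 genes on the p53 list, which holds Trp53 itself beside target genes, Zmat3 fell (log2 fold change -0.30) and Bbc3 rose (0.64). The median of the 12 was -0.13, whereas Cdkn1a, also a p53 target, was among the members that fell. At an unadjusted p under 0.05, 4 of the 12 were lower and 1 was higher, and DESeq2 called 3 lower and 1 higher. No gene of these 12 passed once WT replicate 3 or either of HOM replicates 1 and 3 was removed.

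Cell type markers moved with the members in part. The summed neuronal markers were 6233 to 7164 CPM in WT and 5612 to 5854 CPM in HOM, and the summed mural cell markers 160.2 to 170.4 CPM and 125 to 147 CPM. Oligodendrocyte markers summed to 3651 to 5483 CPM in WT and 3147 to 3846 CPM in HOM. All 6 had a negative log2 fold change (median -0.31) and an unadjusted p under 0.05, and 0 passed after adjustment. Astrocyte markers went from 4717 to 5059 CPM in WT to 3780 to 4634 CPM in HOM, with Aqp4 the 1 that fell (log2 fold change -0.40), and microglial markers from 188 to 219 CPM to 217 to 240.4 CPM, with P2ry12, which lies inside Med12l, at 0 throughout. The 6 microglial markers tested all had a positive log2 fold change (median 0.26), and 3 had an unadjusted p under 0.05 by edgeR. After adjustment C1qa alone of these rose (log2 fold change 0.44, SE 0.12), just past the threshold (adjusted p = 0.04997 by edgeR). The median log2 fold change was -0.19 over the 7 neuronal markers, of which Gad1 and Snap25 fell. The part of these levels in the results on the members was not tested.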

How the data were processed

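RNA of 4 WT and 4 HOM samples was made into stranded, paired-end TruSeq libraries, per the labels' protocols. The deposited table holds the counts of the authors as whole numbers, not normalized, by Ensembl gene. FastQC 0.11.3, STAR, featureCounts and edgeR on GRCm38 are named in the submitters' processing notes. The sources used here do not give the annotation release, strand setting or other versions. GENCODE M21 named 54409 of 54446 genes, and the rest held 0.0143% of counts. Of 1263 protein-coding genes nested in another gene 1258 stood at 0, so the counts are taken to cover whole gene bodies, introns included, without strand, and to leave out shared reads.

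The test of counts was that of edgeR 4.0.16 (R 4.3.3, glmQLFit and glmQLFTest, TMM scaling, filterByExpr), adjusted by Benjamini-Hochberg over 17395 genes at 0.05. SEs are the log2 fold change over the square root of F. Log2 CPM used a prior count of 2. The biological coefficient of variation was 0.117. No 2 libraries of a group agreed within sampling noise (lowest chi-square per degree of freedom 7.03). Alternatives used DESeq2 1.42.0 and limma 3.58.1. The test was tried on simulated data first. Members, lists and pairs were chosen with earlier results of these data known. Every member is accounted for. The 12 lower members of smallest p, the 8 others of smallest p and both genes of each pair are given by library. Up to 4 called genes of each other list are named. Exceptions, chosen after their values were seen, are library values of the remaining lower members and of Sgk1.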

Additional observations from a re-analysis of the deposited data

Results flagged for a closer look

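Among 84 groups of 4 libraries (42 members in each genotype), 4 held a library far from the other 3, about what chance gives at 1 in 20. Gpr3 stood at 4.68 CPM in WT replicate 1 against 6.99 to 7.36 CPM in the other WT libraries. Zfp36 stood at 2.11 CPM in HOM replicate 3 against 3.04 to 3.16 CPM. Osgin2 stood at 16.5 CPM in HOM replicate 4 against 18.1 to 18.3 CPM. Maff stood at 1.53 CPM in HOM replicate 4 against 1.395 to 1.41 CPM.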

How the results depend on the processing

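Over 19 alternatives all 18 lower members kept a negative sign, and 8 of them passed with each library left out in turn: Trib1, Coq10b, Arl4d, Plk3, Fbxo33, Pcsk1, Tiparp and Klf4. The number of lower members ranged from 8 to 16 with 1 library left out and was 2 with the choroid plexus covariate; no member was higher in any setting. Genes called over the whole table numbered 940, with 180 to 1187 when 1 library was left out, 1900 with DESeq2, 364 with the replicate block, 36 with the covariate and 335 when both replicates 4 were left out. The split of 429 higher and 511 lower became 539 and 355 with upper-quartile scaling and 844 and 286 with library totals only. Called genes over the 7 comparison lists numbered 16, 10 to 20 with 1 library left out, 27 with DESeq2 and 6 with the covariate. Causes of these shifts were not tested. No pair of related genes passed with a prior count of 0.5 or with 1 library left out. As in the main test, a pass would have needed most pairs at the smallest p that the relabellings allow. This outcome was thus nearly fixed in advance and says little about stability.

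Signs turned for members that did not pass. With library totals only, the log2 fold change of Klf6 was 0.0090 and the log2 fold change of Maff 0.0017. With the covariate, Maff stood at 0.086, Ier3 at 0.024, Arf4 at 0.0063 and Inhba at 0.43. Leaving out both replicates 4 put Inhba at 0.15. With 1 library left out, Maff ranged from -0.20 to 0.11, Gadd45g from -0.20 to 0.045, Inhba from -0.34 to 0.065 and the paralog contrast Gadd45b/Gadd45a (log2 ratio, HOM minus WT) from -0.18 to 0.046. The filter of 1 CPM left out Atf3 and Inhba.

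Same-numbered samples share only a number: their deviations correlated at 0.05, -0.20, -0.01 and 0.03, and no sample correlated best with its own number. With the replicate block 14 members were lower in place of 18, all 14 among the 18. Klf2, Sertad1, Ier5 and Gadd45b were lost. That setting called 195 of 17395 genes lower over the whole table. Low counts limit Atf3, Inhba, Maff and Pim1, which with Ier2 had the widest intervals.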
